A study of Mus musculus with 7 samples.

Results

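The cells of deposited label 3, 1 of 19 numbered cell clusters deposited without names, were described in Drop-seq profiles of the developing mouse dorsal forebrain. They were taken by that number alone and numbered 907 of 10261 cells. In Drop-seq, single cells are caught in droplets with barcoded beads, and each captured mRNA molecule is counted once through its unique molecular identifier (UMI). The tissue came from embryos of the outbred CD-1 strain without a named genotype or treatment, dissociated with papain. The groups were embryonic day (E) 10.5, E12.5, E14.5, E15.5, E16.5 and E18.5, with 1 sample each except E14.5, which had 2. The labels do not say how many embryos went into a sample, so that a p-value here reflects how these samples vary, part of which may be technical.

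Radial glia are the stem cells of the embryonic cortex. They divide at the surface of the ventricle and replicate their DNA with their nuclei farther from it, so that cells caught at one moment lie at different points of the cell cycle. At the start of S phase, E2F transcription factors switch on genes for origin licensing, the replication fork and nucleotide supply. In G2 and mitosis, genes of the spindle, the kinetochore and cytokinesis peak instead, many of them through a promoter element called CHR (cell cycle genes homology region).

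Label 3 cells came mostly from E12.5 and from the first sample of E14.5. E10.5 held 28 of them, E12.5 held 505, the samples of E14.5 held 328 and 22, E15.5 held 20, and E16.5 and E18.5 held 2 each. Levels below are CPM, the UMI counts of a gene summed over the cells of a label in a sample and scaled to a common total. Except where cells are said to be pooled over samples, they are given for the 5 samples with at least 20 label 3 cells. Those sums held 48715 UMIs at E10.5, 1215554 at E12.5, 729275 and 76882 for E14.5 and 37023 at E15.5. A single UMI was therefore worth 20.5 CPM at E10.5 and 27.0 CPM at E15.5, and small values in these 2 samples rest on few molecules. A label 3 cell had a median of 1934 UMIs, against 1462 in label 1 and 3149 in label 10, the clusters it is compared with.

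The 6 genes that mark the cells were all among the 10 genes with the highest fold over the other cells, of those found in at least 10% of label 3 cells. The clusters had been formed from these genes, so the folds describe the cells and test nothing. Levels in this paragraph pool the cells of all samples, so they mix label with stage. Esco2, the acetyltransferase that ties sister chromatids together during S phase, stood at 391 CPM against 72.5 CPM in all other cells, a 5.33-fold difference. The fold was 4.96 for Tcf19, a factor of the G1 to S transition, 4.77 for Neil3, a DNA glycosylase, and 4.38 for Nr2e1, the nuclear receptor that maintains neural stem cells. It was 4.35 for E2f8, a repressor of the E2F family, and 4.30 for Tk1, the thymidine kinase of S phase. The other 4 of the top 10 were Rgcc, Mxd3, Chac1 and Id4. For 5 of the 6 markers label 3 had the highest level of the 19 labels. The exception was Neil3, with 121 CPM in label 7 against 103 CPM in label 3.

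Within label 3 the marker levels varied between samples. Esco2 was at 287 CPM at E10.5, 383 at E12.5, 426 and 338 for E14.5 and 216 at E15.5, with a mean of 330.3 ± 82.2 CPM (SD, n = 5). Tk1 was at 103, 190.0, 202, 195 and 108 CPM in the same order, and Nr2e1 at 493, 921, 665, 754 and 297 CPM. These 3 were lowest in the E10.5 and E15.5 samples, those with the fewest UMIs. Neil3 was at 41.1, 93.8, 98.7, 325 and 135 CPM, so that its highest value lay in the smaller E14.5 sample and the 2 E14.5 values lay on both sides of the E15.5 value. Tcf19 was at 20.5, 97.1, 89.1, 143 and 54.0 CPM and E2f8 at 82.1, 88.8, 61.7, 117 and 27.0 CPM, of which the lowest values rest on 1 UMI.

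The regulatory sequence upstream of these genes was read from RefSeq (GRCm38.p6), which covered 5 of the 6 markers and not Esco2. The window of 250 bases before to 50 after the start site was searched on both strands for the E2F word TTCCCGC, its forms TTGGCGC and, with other middle letters, TTCGCGC and also TTGCCGC, and for the CHR word TTTGAA. The E2F and CHR words cannot overlap each other. E2f8 and Tcf19 are shown as the 2 markers with an E2F word, and Top2a, the DNA topoisomerase of G2 and mitosis, was added after its values were seen, as an example of a CHR word without an E2F word. Each line gives the 130 bases before the start site on the strand of the gene, with matches in capitals.
E2f8 (minus strand, chr7:48881597-48881726): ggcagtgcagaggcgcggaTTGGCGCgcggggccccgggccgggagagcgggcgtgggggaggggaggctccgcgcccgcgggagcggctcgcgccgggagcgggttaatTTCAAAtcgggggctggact
Tcf19 (minus strand, chr17:35516825-35516954): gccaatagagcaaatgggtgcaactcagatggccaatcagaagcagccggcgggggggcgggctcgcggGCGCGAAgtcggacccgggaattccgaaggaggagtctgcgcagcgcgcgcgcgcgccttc
Top2a (minus strand, chr11:99024190-99024319): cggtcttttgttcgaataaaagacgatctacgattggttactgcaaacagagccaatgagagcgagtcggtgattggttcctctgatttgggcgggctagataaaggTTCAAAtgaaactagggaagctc
The promoter of E2f8 held an E2F word 111 bases and a CHR word 20 bases before its start, Tcf19 an E2F word 61 bases before, and Top2a a CHR word 23 bases before. A match is a run of letters and does not show that a factor binds there. Of all 32851 promoters in the table, 9.57% held an E2F word and 17.9% a CHR word.

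The name S-phase radial glia was checked against gene lists for S phase, G2 and M phase and radial glia. The summed level of 101 S-phase genes was the highest of the 19 labels in label 3, at 21704 CPM, ahead of label 6 at 20812, label 7 at 19861, label 1 at 16994 and label 10 at 14386 CPM. A sum is led by its most abundant genes. The sums in this paragraph pool the cells of all samples, so their ranks mix label with stage. The summed level of 38 G2 and M genes was 16690 CPM in label 3, and higher only in labels 10 (31464 CPM) and 7 (24412 CPM). That of 22 radial glial genes was 17280 CPM, rank 4 of the 19 labels. The S-phase part of the name thus covers only some of the cell cycle RNA in these cells, and they are called label 3 cells here. Genes of the dorsal telencephalon were present, with Lhx2 at 411 ± 72.8 CPM, Emx2 at 428 ± 201 CPM and Pax6 at 428 ± 122 CPM (SD, n = 5).

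Markers of other cell types were low, except for the pan-neuronal genes. The 11 endothelial and mural genes summed to 0 to 4.11 CPM over the 5 samples, with 8 to 11 of them at 0, and the 10 microglial genes to 0 to 9.6 CPM, with 9 or 10 at 0. The 8 Cajal-Retzius genes summed to 3.29 to 27.0 CPM, and the 10 genes of cortical hem and choroid plexus to 0 to 26.0 CPM. The 8 erythroid genes summed to 0 to 91.0 CPM and the 8 mesenchymal genes to 52.0 to 103 CPM, the latter mostly from Prrx1. The 11 interneuron genes summed to 104 to 270 CPM, with 7 to 10 of them at 0, and Dlx2 was at 1 UMI in all 5 sums together. The 20 pan-neuronal genes summed to 1416 to 2852 CPM, led by Map1b at 1124 ± 196 CPM, and between 0 and 12 of the 20 were at 0. In label 1 their sum was 1609 to 2862 CPM over the same samples. Of the 89 cells that a doublet caller marked in the series, 17 were in label 3, which held 907 of the 10261 cells. Marked cells were thus more frequent in label 3 than in the whole series. They made up 1.87% of label 3, 1.23% of label 1 and 1.40% of label 10, and 3.35% of label 3 in the first E14.5 sample.

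**Figure D1:**
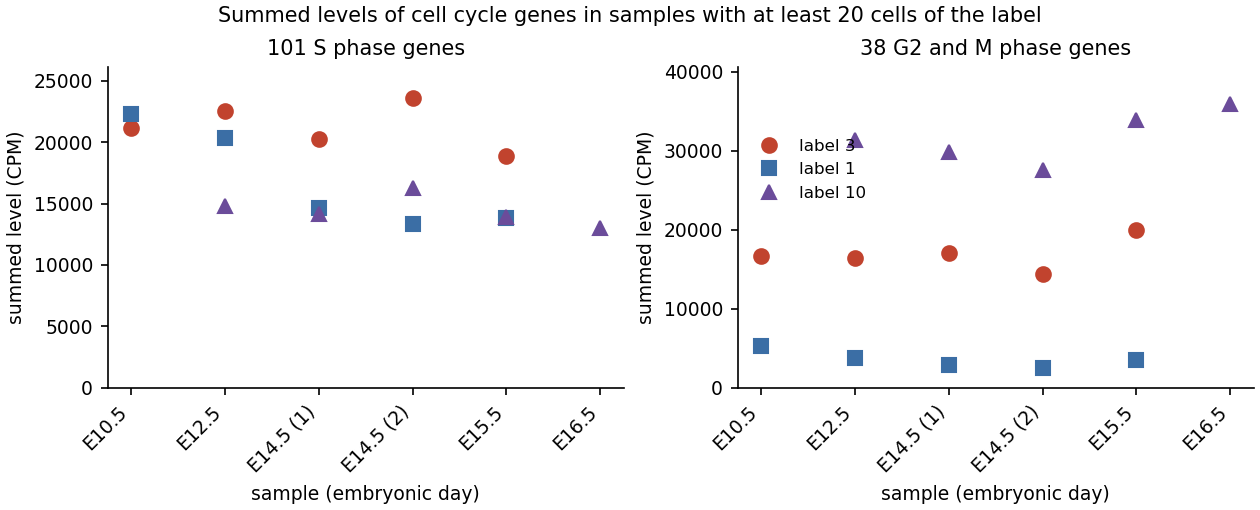
Summed level in CPM of the S-phase genes and of the G2 and M genes (y axes, from 0) by sample (x axis), for labels 3, 1 and 10, with 1 point per sample of at least 20 cells. Label 3 lies between 18853 and 23647 CPM for S phase and between 14386 and 19961 CPM for G2 and M, between label 1 below and label 10 above in the latter.

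Label 1 was compared first because it also expressed radial glial and replication genes. Of the gene lists, that of G2 and M phase had the highest median ratio of label 3 to label 1. The summed G2 and M level was 16668 CPM at E10.5, 16485 at E12.5, 17036 and 14386 for E14.5 and 19961 at E15.5 in label 3. In label 1 it was 5328, 3818, 2916, 2475 and 3521 CPM, so that the lowest label 3 sample lay above the highest label 1 sample. Top2a was at 1765, 1825, 1789, 1431 and 1864 CPM in label 3 and at 536, 281, 201, 117 and 111 CPM in label 1, without overlap. The labels were made from these genes, so no test was run, and a gene was counted as higher or lower where it differed at least 2-fold in the median over samples and in the same direction in every sample. The log2 ratio was taken within each sample after 1 CPM was added.

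Of 4629 genes that reached 50 CPM in label 3 or label 1, 133 were higher in label 3 (2.87%) and 33 were lower (0.713%). Of the 38 G2 and M genes, 36 were higher, with a median log2 ratio of 2.78 where that of all measured genes was -0.03. The other two were the cyclins Ccnb1 and Ccnb2, whose median log2 ratios were 2.74 and 1.15 but whose sign was not the same in every sample. The highest median log2 ratios belonged to Kif18a at 4.67, a kinesin that aligns chromosomes, Kif2c at 4.15, a kinesin of the centromere, Nusap1 at 4.10 and Hmmr at 4.09, both of the spindle. Plk1, Aurka, Anln and Spdl1, of mitotic entry, the spindle pole, cytokinesis and the kinetochore, followed at 3.63 to 4.07. Hmmr was at 103, 198, 234, 273 and 189 CPM in label 3 and at 16.8, 10.7, 10.1, 0 and 42.8 CPM in label 1. Where label 1 had no UMI the ratio depends on the 1 CPM added, and the level itself is the safer value.

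The S-phase genes differed less, and not all in one direction. Of 87 measured, 11 were higher, 1 was lower and the median log2 ratio was 0.52. Those higher were Esco2 and Cdca5, of cohesion, Neil3, Brca1, Rad54l and Blm, of DNA repair, Fen1, which trims Okazaki fragments, Tyms, which makes thymidylate, Dbf4, which activates origins, and the regulators E2f8 and Ccna2. Esco2 had log2 ratios of 1.77, 1.63, 2.87, 3.0 and 3.58 from E10.5 to E15.5, with 83.8, 123, 57.5, 41.5 and 17.1 CPM in label 1. Ccna2, the cyclin of S phase and G2, had nearly the same ratio in every sample, between 2.21 and 2.49. The markers Tcf19 and Tk1 had medians of 0.57 and 0.65 but were lower in label 3 at E10.5, and Nr2e1 had a median of 0.10 with both signs.

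Genes of origin licensing and firing, the steps that precede replication, lay on both sides of 0. Of 18 measured, 3 were higher in every sample and 1 was lower, where 367 and 377 of all 4629 measured genes were. The median log2 ratio was 0.15, and Dbf4 and Gins2 alone were counted, in opposite directions. Their summed level was 3161, 3444, 2884, 3590 and 2215 CPM in label 3 and 3602, 3682, 2552, 2247 and 2073 CPM in label 1, higher in label 3 from E14.5 on. The helicase subunits Mcm2, Mcm3, Mcm4, Mcm5 and Mcm6 had medians of -0.53, -0.64, -0.39, -0.45 and -0.65, with both signs over the samples. Gins2, another part of the helicase, was lower in every sample, at 79.1 CPM against 171 CPM on average and a median of -1.0. Pcna, the sliding clamp, was at 513, 403, 454, 832 and 594 CPM in label 3 and had a median ratio of 0.19. The Mcm genes other than Mcm5, Gins2 and the 11 S-phase genes beyond the markers were singled out after their values were seen.

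Genes lower in label 3 than in label 1 included the proneural factor Neurog2, at a median log2 ratio of -1.65. It was at 0, 46.1, 30.2, 65.0 and 54.0 CPM in label 3 and at 16.8, 95, 114, 145 and 171 CPM in label 1. The 16.8 CPM in label 1 at E10.5 was 1 UMI. Hes6, which acts with the proneural factors, was also lower in every sample, at -1.47. The 15 neurogenic and intermediate progenitor genes together summed to 390 to 819 CPM in label 3 and 536 to 1258 CPM in label 1, and their median ratio was -0.91 over 7 measured genes. Ddit4, an inhibitor of mTORC1 signalling, had the lowest ratio at -2.74, followed by the noncoding RNA Miat, Ccdc86, Fam58b, Cd3eap, the uracil glycosylase Ung at -1.83 and Atg14. Of these, Fam58b, Ung and Atg14 were not lower in every sample. Ddit4, Miat and Ccdc86 had means of 47.5, 13.0 and 22.5 CPM in label 3. With 1 UMI worth 20.5 CPM at E10.5 and 27.0 CPM at E15.5, these ranks rest on few molecules. None of 21 measured radial glial genes was counted in either direction, where 2.87% of all measured genes were higher and 0.713% lower. At these shares a list this short could give 0 without being unlike other genes. Its median ratio was -0.06, against -0.03 over all measured genes.

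**Figure D2:**
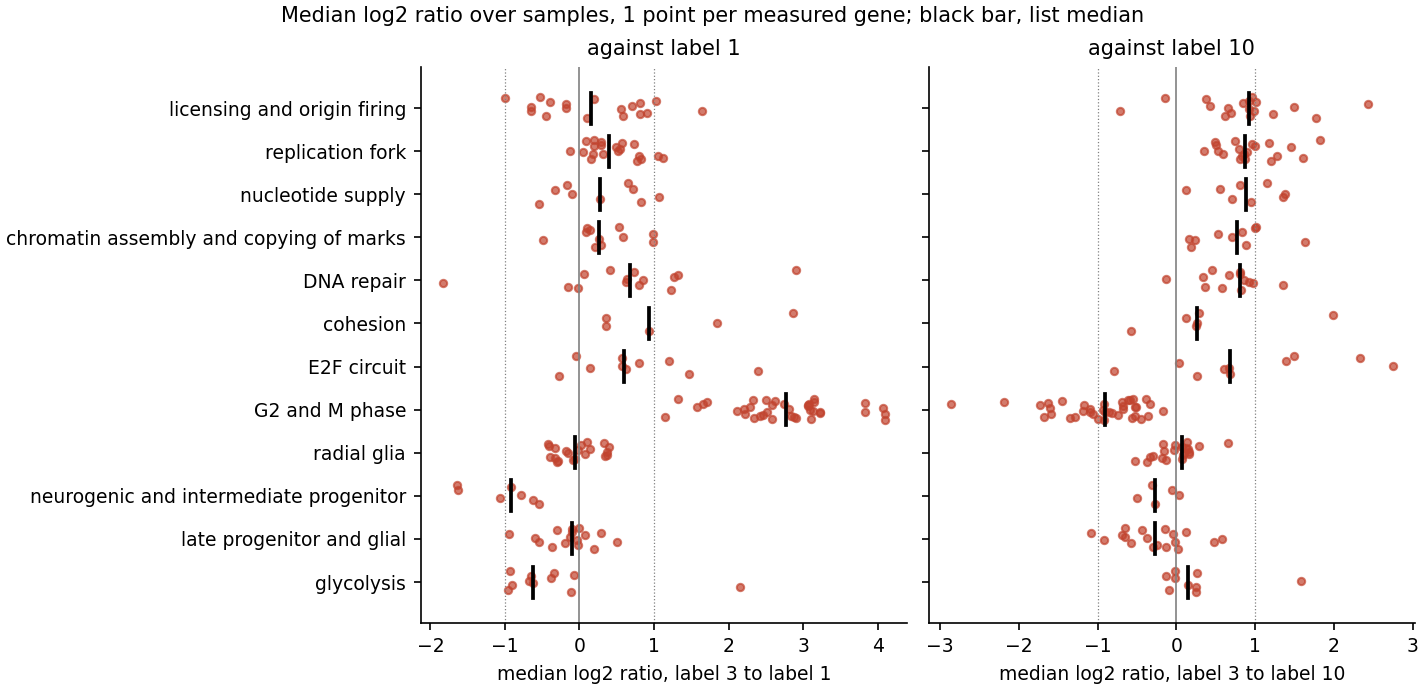
Median log2 ratio over samples of label 3 to label 1 (left) and to label 10 (right) on the x axes, by gene list on the y axis, with 1 point per measured gene and a black bar at the list median. G2 and M genes lie right of 0 against label 1 (median 2.78) and left of 0 against label 10 (median -0.91), and radial glial genes lie around 0 in both.

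Against label 10, label 3 was lower in G2 and M genes and, as against label 1, higher in S-phase genes. It was compared in the 4 samples of E12.5 to E15.5, since E10.5 held 1 label 10 cell. The summed G2 and M level of label 10 was 31390 CPM at E12.5, 29909 and 27596 for E14.5 and 33921 at E15.5, above every label 3 sample. Its summed S-phase level was 14809, 14184, 16241 and 13939 CPM, below every label 3 sample. Pcna was at 403, 454, 832 and 594 CPM in label 3 and at 108, 137, 246 and 123 CPM in label 10, without overlap. Ccnb1, the cyclin of mitotic entry, was at 118, 133, 52.0 and 27.0 CPM in label 3 and at 509, 502, 652 and 392 CPM in label 10.

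Of 4596 measured genes, 49 were higher in label 3 than in label 10 (1.07%) and 88 were lower (1.91%). Among 85 S-phase genes, 50 were higher in every sample, as were 554 of the 4596 measured genes. Of these 50, 18 were higher by at least 2-fold in the median, and Dbf4, Ccna2 and the cohesin subunit Rad21 were lower in every sample by less. Their median log2 ratio was 0.81, against 0.01 over all measured genes. The highest ratios were those of Tcf19 at 2.75, Cdc6 at 2.43, which loads the helicase onto origins, Wdr76 at 2.36, the cyclin Ccne2 at 2.32 and Tigd2 at 2.05. Dscc1, of the clamp loader for cohesion, Fam111a, which binds the clamp, and Pcna itself followed at 1.99, 1.96 and 1.82. Tcf19 was at 97.1, 89.1, 143 and 54.0 CPM in label 3 and at 1.67, 16, 15.9 and 18.9 CPM in label 10. Esco2 did not separate these 2 labels, with 227, 267, 366 and 236 CPM in label 10 and ratios of both signs.

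Of the 38 G2 and M genes, 32 were lower in label 3 than in label 10 in every sample, as were 530 of the 4596 measured genes. Of these 32, 15 were lower by at least 2-fold, and the list's median log2 ratio was -0.91. Ube2c, which drives the exit from mitosis, had a median of -2.19 and ratios between -2.51 and -1.87. The lowest ratios over all genes were those of the helicase Pif1 at -4.45, Fzr1, which activates the anaphase-promoting complex, at -4.11, Socs7 at -3.24, Ccnb1 at -2.86 and Pigyl at -2.77. Hras, the spindle gene Psrc1 and Arhgef39 followed at -2.46 to -2.19. Of these 8 genes Socs7 was not lower in every sample. Several of these were at 0 in the smaller label 3 sums, where 3 UMIs would be 39.0 CPM (E14.5, second sample) and 81.0 CPM (E15.5). Mcm2 to Mcm6 had medians of 0.93 to 1.49, and Dbf4 and Ccna2, higher than in label 1, had medians of -0.71 and -0.80 against label 10.

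Promoter words were counted over the same gene groups, per gene with a promoter, and a match in any promoter of the gene counted. Of all 27025 such genes, 10.9% held an E2F word and 20.2% a CHR word. An E2F word was held by 51 of 79 S-phase genes (64.6%) and 6 of 31 G2 and M genes. A CHR word was held by 15 and 23 of them (74.2% of the latter). Of the 100 genes with a promoter that were higher in label 3 than in label 1, 31 held an E2F word and 58 a CHR word. Of all measured genes with a promoter, 23.7% and 14.7% did. Of 34 such genes higher than in label 10, 16 held an E2F word (47.1%) and 5 a CHR word. Of 66 such genes lower than in label 10, 6 held an E2F word (9.09%) and 32 a CHR word (48.5%).

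Single cells carried RNA of both phases at once. Each cell was thinned to 1000 UMIs, which kept 736 of 907 cells of label 3, 847 of 1135 of label 1 and 407 of 429 of label 10. A label 3 cell had a median of 21 UMIs of S-phase genes (10th to 90th percentile 11 to 32) and 16 of G2 and M genes (8 to 26). In label 1 the medians were 15 (5 to 31) and 2 (0 to 8), and in label 10 they were 13 (8 to 21) and 32 (20 to 44). All 736 thinned label 3 cells had at least 1 UMI of each list, as had all 407 of label 10 and 79.8% of label 1. At least 1 UMI is a low bar for such long lists. Label 2, a neuronal cluster with a median depth of 1866.5 UMIs, gave medians of 4 and 0 UMIs and is given as a background. It had an S-phase UMI in 97.6% and a G2 or M UMI in 28.7% of its 833 thinned cells. Whether those UMIs were free RNA or the neurons' own was not tested.

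Shares of cells with a UMI were also taken for single genes. After thinning, Esco2 was found in 27.2% of label 3 cells (exact Clopper-Pearson 95% interval 24.0 to 30.5%), 5.79% of label 1, 20.6% of label 10 and 0.720% of label 2. Before thinning the shares were 43.2%, 8.99%, 43.8% and 0.992%. Top2a was found in 73.5% of thinned label 3 cells, against 17.5% in label 1, 85.7% in label 10 and 2.16% in label 2, or 83.5%, 23.6%, 95.6% and 4.17% before thinning. Pcna was found in 30.3%, 25.7%, 10.6% and 3.0% after thinning and in 45.6%, 37.8%, 29.6% and 6.75% before. Nr2e1 was found in 52.7%, 46.6% and 44.0% of labels 3, 1 and 10 and 0.960% of label 2 after thinning, and in 70.7%, 55.7%, 76.5% and 1.69% before. For Esco2 and Nr2e1 the order of labels 3 and 10 thus changed with thinning. Neil3 was found in 7.47%, 1.30% and 7.62% of labels 3, 1 and 10 after thinning, and in 17.2%, 2.82% and 21.7% before. After thinning, Tcf19 was at 9.38%, 4.72% and 0.491%, E2f8 at 6.93%, 3.31% and 3.93% and Tk1 at 16.4%, 7.20% and 6.63%. These shares pool the cells of all samples, and the interval covers counting error only.

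**Figure D3:**
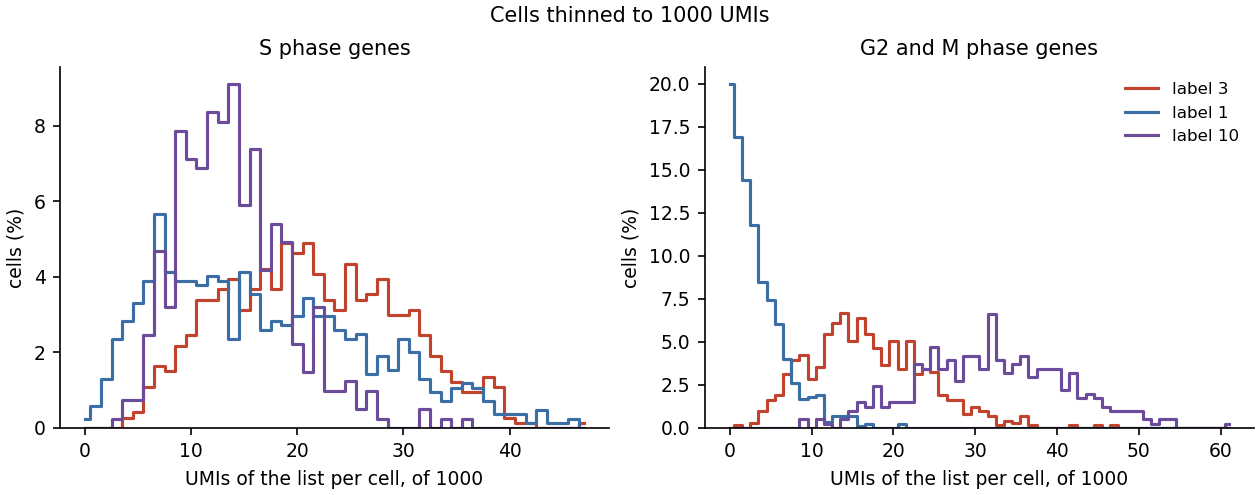
Share of thinned cells in percent (y axes) by the number of S-phase and of G2 and M UMIs among 1000 per cell (x axes), with 1 line per label. Label 3 cells centre on 21 S-phase and 16 G2 and M UMIs, and their G2 and M counts lie between those of label 1 (median 2) and label 10 (median 32).

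The share of label 3 among all cells was highest at E12.5. It was 2.39% at E10.5 (exact 95% interval 1.59 to 3.43%), 18.9% at E12.5 (17.5 to 20.5%), 10.1% (9.12 to 11.2%) and 4.34% (2.74 to 6.50%) in the samples of E14.5 and 1.97% at E15.5 (1.21 to 3.03%). At E16.5 and E18.5 it was 0.517% and 0.156%. The 2 samples of E14.5 thus differed beyond counting error. The 2 libraries of E12.5 gave 19.2% and 18.6%, and those of the first E14.5 sample 11.3% and 8.44%. Among cells of labels 1, 3, 6, 10 and 12 label 3 made up 4.05%, 41.9%, 32.3%, 22.7%, 13.3%, 3.33% and 1.03% in the order of the samples. These shares count the erythroid cells that were set aside elsewhere, 7 of them in label 1 at E10.5. At E10.5, 621 of those 691 cells were in label 6, and at E18.5 162 of 194 were in label 12. The clusters were formed from genes that also differ with stage, and stage and cluster border cannot be told apart in these shares, which were not tested.

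**Figure D4:**
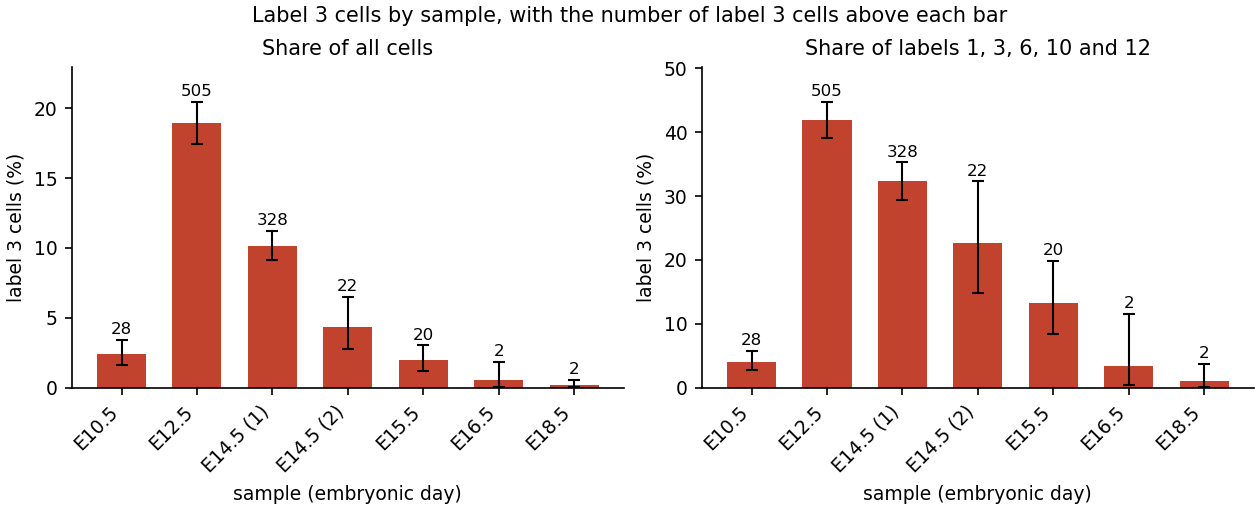
Label 3 cells in percent (y axes, from 0) of all cells (left) and of cells of labels 1, 3, 6, 10 and 12 (right) by sample, with exact 95% intervals as bars and the number of label 3 cells above each. Both shares peak at E12.5, at 18.9% and 41.9%.

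Embryonic day itself was not used to define the label, so change with day was tested within it. The clusters were formed from genes that also differ with stage, so every slope below describes the cells assigned to label 3. Change within such cells and a shift of the cluster border with stage cannot be told apart. The summed counts of the 5 samples were fitted with a slope on day (edgeR's quasi-likelihood test with Benjamini-Hochberg adjustment over all genes tested), in log2 units per day. Of 2082 genes tested, 21 rose (1.01%) and 4 fell (0.192%), 1.2% in either direction. No gene of the S-phase or the G2 and M list was among them. The label was made from genes that include these, which may keep their levels alike over stages. Slopes of these 2 lists and of the markers therefore cannot show whether cycling changed with stage. None of 56 S-phase genes tested, of 101 on the list, was called by edgeR, where 3 had an unadjusted p under 0.05 and DESeq2 called 0, with 0 at an unadjusted p under 0.05. Their median slope was -0.02. None of 31 G2 and M genes was called by edgeR either, with 4 at an unadjusted p under 0.05, 0 called and 3 unadjusted in DESeq2, and a median slope of 0.01. Esco2 had a slope of 0.01 (SE 0.10, adjusted p = 0.983), Neil3 of 0.36 (SE 0.18, adjusted p = 0.570) and Top2a of -0.01 (SE 0.07, adjusted p = 0.983). Tcf19 and E2f8 were below the filter on low counts and were not tested. With only the cells of at most 5% mitochondrial UMIs 3 samples and 1 residual degree of freedom were left, and none of the 25 slopes was called by edgeR, with 253 of 8525 genes at an unadjusted p under 0.05. The slopes of Hmga2, Draxin, Nfix and Zbtb20 were then -1.84, 2.37, 1.23 and 0.80, against -1.35, 1.99, 1.15 and 0.90 with all cells.

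The genes that fell were Hmga2, Cntnap2, Lix1 and Ccnd1. Hmga2, which binds AT-rich chromatin and is known from young stem cells, was at 842 CPM at E10.5, 197 at E12.5, 17.8 and 0 for E14.5 and 27.0 at E15.5, with a slope of -1.35 (SE 0.13, adjusted p = 1.01e-07). Its E10.5 and E12.5 values lay far above the rest. It was called without each of the other 4 samples and could not be tested without E12.5, where its counts were too low. Cntnap2, a neurexin-like adhesion protein, fell by 0.68 log2 units per day (SE 0.14, adjusted p = 0.00736) and Lix1 by 0.67 (SE 0.15, adjusted p = 0.0119). Cyclin D1 (Ccnd1) was at 287, 251, 97.4, 91.0 and 81.0 CPM and fell by 0.47 (SE 0.12, adjusted p = 0.0328). Without the E10.5 sample Cntnap2 was no longer called (slope -0.66, adjusted p = 0.213), and Ccnd1 lost its call without E15.5 (0.145) or either E14.5 sample (0.296 and 0.130). Lix1 lost its call without E15.5 (0.0741) or the first E14.5 sample (0.226). Like Hmga2, the genes Cntnap2, Lix1 and Ccnd1 could not be tested without E12.5.

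Part of the late progenitor and glial list rose. Of its 28 genes 12 were tested, 6 rose (1.01% of all genes tested did), none fell, and the median slope was 0.55 where that of all genes was 0.00. The 6 were Nfix, Zbtb20, Mt1, Ndrg2, Aldoc and Nfib. A list chosen as late leans to rises, since its members could pass the low count filter through the later samples alone. The count of rises in the list therefore tests nothing, and single genes are given below. Nfix, a nuclear factor I protein of glial competence, was at 0, 87.2, 521, 585 and 621 CPM, with a slope of 1.15 (SE 0.14, adjusted p = 9.45e-06). Zbtb20, a repressor active in late progenitors, was at 20.5, 162, 366, 637 and 999 CPM, with a slope of 0.90 (SE 0.12, adjusted p = 3.89e-05). Both were higher in every later stage than in the one before. Nfix, Zbtb20 and Ndrg2 remained called without each sample in turn, while Aldoc and Nfib were not called without E10.5 (adjusted p = 0.546 and 0.332) and Mt1 not without E12.5 (0.0894).

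The steepest rise was that of Draxin, a secreted axon repellent, at 20.5, 4.94, 128, 169 and 459 CPM, with a slope of 1.99 (SE 0.30, adjusted p = 9.96e-05). Dct, a melanin synthesis enzyme also made by radial glia, rose by 1.57 per day (SE 0.37, adjusted p = 0.0219), the early response gene Fos by 1.51 (SE 0.26, adjusted p = 0.000842), Fam210b by 1.32 (SE 0.25, adjusted p = 0.00281) and Rgs20 by 0.83 (SE 0.18, adjusted p = 0.00907). Draxin, Fos, Fam210b and Rgs20 were not called without the E12.5 sample (adjusted p = 0.0781, 0.214, 0.214 and 0.155), nor Fam210b without the first E14.5 sample (0.107). Fos was at 20.5, 15.6, 100, 403 and 378 CPM, so that its E14.5 samples lay far apart.

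Most radial glial genes gave no call. Of 19 tested, 2 rose and Lix1 fell, where 1.2% of all 2082 genes tested were called in either direction. The list thus held calls more often than all genes, and 14 of its 19 slopes were positive. In edgeR 6 had an unadjusted p under 0.05, and DESeq2 called 2 with 5 unadjusted. Pax6, Sox2 and Hes5 had slopes of 0.04, -0.07 and 0.14 (adjusted p = 0.962, 0.893 and 0.760). Fabp7, a fatty acid carrier of radial glia, was at 1067, 1951, 3063, 3122 and 4808 CPM and rose by 0.41 per day (SE 0.07, adjusted p = 0.00111). Dbi, which binds acyl-CoA, rose by 0.39 (SE 0.08, adjusted p = 0.00396). Neither was called without E10.5 (adjusted p = 0.341 and 0.300), at slopes of 0.37 and 0.41. Slc1a3, the glutamate transporter of radial glia, missed the threshold at 0.46 (SE 0.13, adjusted p = 0.0897). The other genes that rose were Tcf4, Tsc22d4, Cwc22, Igfbpl1, Dpysl3, Tenm4, Cd24a and Gpm6b, at 0.47 to 0.81 per day, and each lost its call without at least 1 of the samples. Dpysl3, Cd24a, Tenm4, Gpm6b and Igfbpl1 are also made by young neurons. The summed pan-neuronal level was 1416, 1832, 2852, 2523 and 1783 CPM from E10.5 to E15.5, 0 of 4 tested genes of that list were called (edgeR, 3 at an unadjusted p under 0.05, DESeq2 0 called and 3 unadjusted), and the part of neuronal RNA in these rises was not tested. The median mitochondrial share of a label 3 cell was 4.97, 3.35, 1.85, 2.32 and 6.60% in the same order, and its part in the slopes was not tested.

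**Figure D5:**
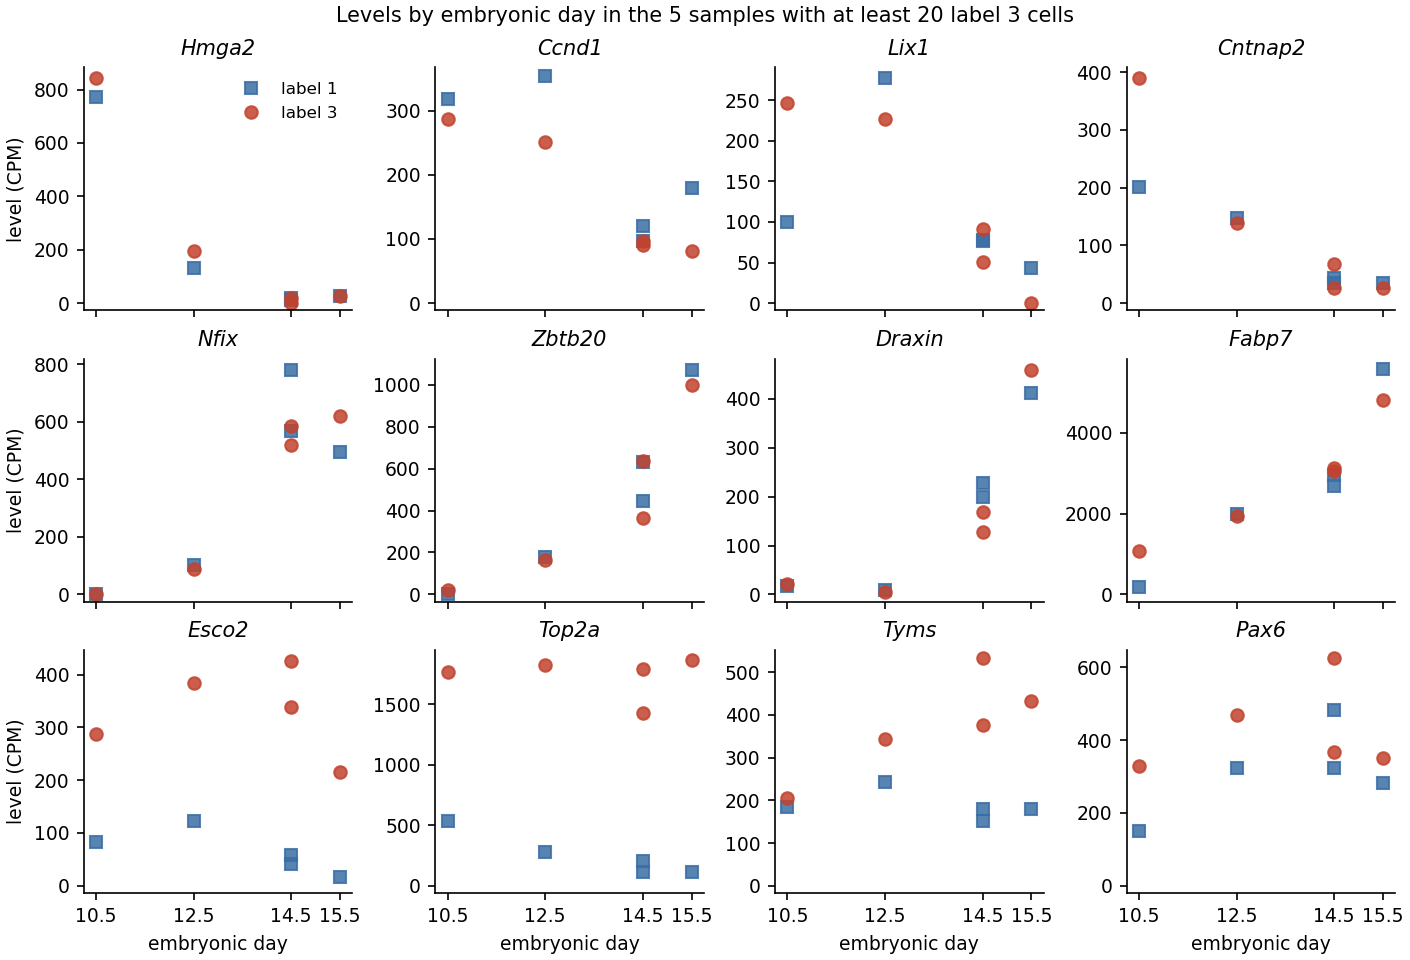
Level in CPM (y axes, from 0) by embryonic day (x axis) of 12 genes in label 3 (circles) and label 1 (squares), with 1 point per sample and 2 samples at E14.5. Hmga2 falls from 842 to 27.0 CPM in label 3, Nfix and Zbtb20 rise to 621 and 999 CPM, and Esco2 and Top2a stay between 216 and 426 CPM and between 1431 and 1864 CPM in label 3.

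Whether a slope in label 3 differed from that in label 1 or label 10 was tested directly, as the interaction of label and day with the sample as a block. Against label 1, edgeR called 0 of 4193 genes (0%), with 188 at an unadjusted p under 0.05, and DESeq2 called 0 with 96 unadjusted. The smallest adjusted p of a named gene was that of Top2a, whose slope was 0.37 higher in label 3 (SE 0.07, adjusted p = 0.0759). Over S-phase genes 71 of 84 differences were positive, with a median of 0.17, and over G2 and M genes 32 of 37, with a median of 0.23. All 4193 genes had a median of -0.00, so that positive and negative differences were about equal in number. The labels were made from genes that include both lists, and the members of a list share the same 5 samples, so these counts test nothing. No single gene of either list passed the threshold. The summed S-phase level was 22268, 20358, 14624, 13368 and 13792 CPM in label 1 from E10.5 to E15.5, and 21184, 22556, 20293, 23647 and 18853 CPM in label 3. Label 1 was higher at E10.5, and its samples of E14.5 and E15.5 lay below every label 3 sample.

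Hmga2, Nfix and Zbtb20 had differences of 0.04 (SE 0.15), 0.09 (SE 0.13) and -0.03 (SE 0.11) against label 1, each with an adjusted p of 0.999, which does not show that the slopes are alike. Against label 10, edgeR called 0 of 7471 genes (0%) over 4 samples, with 176 at an unadjusted p under 0.05, and DESeq2 called 0 with 13 unadjusted. The smallest adjusted p there was 0.413, for Rgs20, whose slope was 0.77 higher in label 3 (SE 0.19).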

How the data were processed

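Single cells of CD-1 dorsal forebrain were profiled by Drop-seq protocol 3.1 with Drop-Seq tools 3.1, per the labels' protocols. The mm10 build and Seurat 3.1.5 are named by the submitters' processing notes. Which aligner, annotation and strand were used is not given in the sources used here. The authors deposited counts, whole numbers of UMIs for 21862 genes, with a library and a cluster number per cell. The 12 libraries were matched to the samples by name, 1 of them (110 label 3 cells, first E14.5 sample) by inference. The members, gene lists and tests were chosen with earlier results of these data known.

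Cells over 2% haemoglobin UMIs (13, of which 8 in label 1 and none in label 3) were set aside, except in shares of cells. Doublets, called with Scrublet (scanpy 1.11.5, expected rate 5%), stayed in. 4 barcodes occurred in over 1 library, in 13 cells, 3 of them in label 3. Counts were summed per label and sample with at least 20 cells. Slopes and differences of slopes were fitted in R 4.3.3 by the two-sided quasi-likelihood test of edgeR 4.0.16 after TMM scaling and filterByExpr, at a Benjamini-Hochberg threshold of 0.05, with DESeq2 1.42.0 as an alternative. Each stage except E14.5 had 1 sample, so neighbouring stages were not tested. The 3-count floor was 61.6, 2.47, 4.11, 39.0 and 81.0 CPM from E10.5 to E15.5. Named genes were the 6 markers, the 10 highest folds over other cells, the 8 highest and 8 lowest ratios to labels 1 and 10, the 8 steepest called slopes each way, called members of lists and 15 genes given in any case. Unnamed gene models and mitochondrial, ribosomal protein, haemoglobin, X-inactivation and Y-linked genes were left out of the steepest and highest genes. The fits were tested on simulated data.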

Additional observations from a re-analysis of the deposited data

How the results depend on the processing

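The number of genes with a called slope in label 3 was 25 and became 45 without the low count filter, 13 with sums thinned to 37023 UMIs, 41 with the E14.5 samples summed and 0 with at most 5% mitochondrial UMIs. Leaving out 1 sample gave between 15 (E12.5) and 52 (E10.5), with different numbers of genes tested. DESeq2 called 17 of the 25, which left out Lix1, Ccnd1, Tsc22d4, Cwc22, Igfbpl1, Dpysl3 and Tenm4 among others, and stage rank instead of day 18. Differences of slopes from label 1 went from 0 to 1 with size factors instead of TMM and with at most 5% mitochondrial UMIs, to 2 without the filter, with stage rank, without doublets, with the E14.5 samples summed or without the library assigned by inference, to 7 with the erythroid cells kept, and to 0 to 4 with 1 sample left out. Those from label 10 stayed at 0 in every alternative that was run. Of the slopes of named genes, 503 values under alternatives stayed called or stayed not called, and 97 lost the call, all of them among the 25 called genes. Direction was compared only where the main fit or the alternative called the gene, and 0 of those values reversed.

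Fewer genes were lower than in label 1 with cells of at least 1000 UMIs (16 against 33), and 34 to 84 with 1 sample left out. Against label 10, 51 to 91 were higher (49 with all samples) and 69 to 153 lower (88) with 1 sample left out, where fewer samples had to share a direction. The share of label 3 at E10.5 was 1.29% with at least 1000 UMIs per cell. With at most 5% mitochondrial UMIs the share was 21.4% at E12.5 and 0% at E18.5 (0 of 162 cells, exact interval up to 2.25%). The cause was not tested. No paired analysis was possible because only E14.5 has a second sample, so numbers cannot pair stages. Ratios and differences of slopes between labels were taken within samples. The folds over other cells, the ranks over 19 labels and the thinned-cell values pooled the cells of all samples. Fits to samples with at least 50 cells, or to cells of at least 1000 UMIs, left 2 samples and were not run, nor was the mitochondrial limit against label 10. Leaving out the inferred library and the shared barcode, and keeping erythroid cells, were chosen after seeing the data.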

Other observations

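Of 11 glycolysis genes measured, 6 were lower in label 3 than in label 1 in each of the 5 samples, none of them by 2-fold in the median, and the median log2 ratio of the list was -0.62. Over all genes 377 of 4629 were lower in every sample. Ldha, which makes lactate, was at 554, 299, 398, 364 and 297 CPM in label 3, with ratios between -1.09 and -0.44, and Aldoa and Tpi1 had medians of -0.96 and -0.67. Against label 10, 4 of 9 measured genes were higher in every sample, Pgam1 among them by at least 2-fold, where 554 of all 4596 were higher in every sample. The median was 0.14, and Ldha had -0.01.

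Ccnd2, a D cyclin, had a median log2 ratio of -0.37 to label 1 and 0.06 to label 10. Of the Notch pathway 6 genes were measured against label 1, with a median of -0.02. Hes1 and Hes5, targets of Notch signalling, had medians of 0.37 and -0.42, each with both signs over the samples. Prrx1, on the mesenchymal list, was at a mean of 67.4 CPM in label 3 and 26.0 CPM in label 1, higher in each sample, while Col3a1 and Twist1 were at 0 in label 3.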
